A study of Homo sapiens with 12 samples.

Results

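The multiple myeloma line KMS11, an established human cell line, was compared with and without an inhibitor of STK17B. Every gene that reached 1 TPM (the share of transcripts assigned to a gene, scaled so that each library has the same total) in at least 2 of 12 libraries was tested, 12731 of 29607 genes. STK17B, also known as DRAK2, belongs to the death-associated protein kinases, which phosphorylate serine and threonine, and the title of the series ties it to ferroptosis and drug resistance in myeloma. The cells of the 2 inhibitor libraries received the STK17B inhibitor and, per the series design, carried a control shRNA. The 2 shControl libraries carried the control shRNA and are labelled as untreated, and both groups carry the genotype label WT. The other 8 libraries came from the same line: 2 with an empty vector (Vector), 2 overexpressing an STK17B cDNA from a vector, and 2 each with the STK17B hairpins sh1 and sh2. The labels give neither the name, dose nor time of the inhibitor. The series design speaks of a vehicle treatment, but no library is labelled as vehicle, so it is open if shControl received it. Effects of the solvent, of other targets and of STK17B inhibition therefore cannot be told apart. The deposited table names its control columns ctrl1 and ctrl9, and their assignment to shControl and Vector is inferred from matching library numbers in the labels. Nothing in the labels tells if the 2 replicates came from separate cultures, so the p-values measure the spread between these libraries, which may be technical.

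The hypoxia-inducible factors (HIF) are transcription factors made of an oxygen-labile alpha subunit and the constant partner ARNT. In oxygenated cells, prolyl hydroxylases of the EGLN family mark the alpha subunit for ubiquitination by the VHL complex, so HIF activity is set mainly by protein stability and not by the level of the HIF1A transcript. HIF switches on glucose uptake, glycolysis, lactate export, mitophagy, angiogenic signals and several oxygen-consuming hydroxylases and demethylases by binding the core sequence RCGTG. Myeloma cells grow in a bone marrow niche that is poor in oxygen, and HIF activity is known there as a support of glycolysis and vessel growth.

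Of the 12 largest falls by the naming rule 9 were HIF targets (the others were FADS2, SDC1 and LOC102724594). The promoters of 4 of these HIF targets are shown, chosen among those that carry ACGTG, a spelling of the core sequence that HIF binds. The windows are those of RefSeq (GRCh38.p14), from 250 bases before to 50 bases after the start site, written 5′ to 3′ on the strand of the gene, with ACGTG or its reverse complement CACGT in capitals (CACGTG where both overlap). ALDOC lies at chr17:28576846-28577145, minus strand, ANKRD37 at chr4:185396591-185396890, plus strand, P4HA1 at chr10:73096817-73097116, minus strand, and BNIP3 at chr10:131981874-131982173, minus strand.
ALDOC: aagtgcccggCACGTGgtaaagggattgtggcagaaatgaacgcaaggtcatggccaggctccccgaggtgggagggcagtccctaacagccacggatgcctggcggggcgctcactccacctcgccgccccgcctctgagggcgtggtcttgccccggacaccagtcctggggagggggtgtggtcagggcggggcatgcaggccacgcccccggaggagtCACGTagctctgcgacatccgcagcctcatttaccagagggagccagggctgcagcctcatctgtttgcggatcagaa
ANKRD37: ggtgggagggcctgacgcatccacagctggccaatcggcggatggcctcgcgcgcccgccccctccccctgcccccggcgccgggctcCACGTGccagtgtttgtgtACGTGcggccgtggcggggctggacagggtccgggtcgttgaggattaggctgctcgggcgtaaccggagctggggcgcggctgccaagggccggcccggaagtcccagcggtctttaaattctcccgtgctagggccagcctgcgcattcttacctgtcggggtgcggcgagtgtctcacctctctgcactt
P4HA1: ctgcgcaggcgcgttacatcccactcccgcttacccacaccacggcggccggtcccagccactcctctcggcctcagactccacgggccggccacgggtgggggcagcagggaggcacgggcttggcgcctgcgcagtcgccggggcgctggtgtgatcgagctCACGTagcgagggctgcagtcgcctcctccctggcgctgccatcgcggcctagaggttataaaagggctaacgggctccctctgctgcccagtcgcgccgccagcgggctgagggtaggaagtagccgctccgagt
BNIP3: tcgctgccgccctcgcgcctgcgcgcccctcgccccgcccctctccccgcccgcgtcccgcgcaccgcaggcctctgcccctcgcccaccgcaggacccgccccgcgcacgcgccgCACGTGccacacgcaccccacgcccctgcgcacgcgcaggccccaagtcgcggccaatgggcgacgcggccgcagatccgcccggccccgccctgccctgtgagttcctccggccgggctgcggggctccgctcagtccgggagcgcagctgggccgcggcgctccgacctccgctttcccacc
In ANKRD37 the matches began 162, 161 and 143 bases before the start site, in P4HA1 86 bases before it, in BNIP3 134 and 133 bases before it, and in ALDOC 240, 239 and 28 bases before it. ACGTG was searched on both strands, so the palindrome CACGTG counts once on each strand. Of 54 HIF targets with a window 57.4% held ACGTG, against 27.8% of the 9640 tested genes with a window. The share was 40.0% of 25 glycolysis genes and 72.4% of 29 other HIF targets, and 34.4% of the 64 genes with a window among those that fell at least 2-fold. The other spelling of the core, GCGTG, was in 55.6% of the HIF targets and 52.3% of all windows. The share with ACGTG was also high in a list that rose: it was 50% of the 26 ribosome biogenesis genes with a window. Of those genes 92.3% held either spelling, against 79.6% of the HIF targets and 64.7% of all windows. Among genes called lower, 1153 had a window, of which 29.6% held ACGTG and 62.4% held either spelling. Of the 26 genes with a window among those that rose at least 2-fold, 30.8% held ACGTG. The windows of PFKFB4, ADM and P4HA2 held no ACGTG, but those of PFKFB4 and ADM held 1 GCGTG each. P4HA2 held neither spelling. The window of PPFIA4, with 2 matches of ACGTG, is not printed. These are matches of letters in a short window, not binding sites.

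MIR210HG, the host transcript of a microRNA that HIF induces, was among the genes that fell, with a log2 change of -2.69. The mature microRNA was not measured in these poly(A) libraries. Its sequence in RefSeq is given for reference, with the seed (bases 2 to 8), which pairs with target transcripts, in capitals.
hsa-miR-210-3p: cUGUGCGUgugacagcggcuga

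Each library had 16577 to 17354 genes above 0 and 11672 to 12353 at 1 TPM or more. TPM values carry no depth, so the precision of single values at low levels is unknown. The inhibitor is not a knockdown, and STK17B (chr2:196133566-196176503, minus strand) stood at 27.1 and 27.4 TPM in shControl and 24.9 and 22.4 TPM with the inhibitor, a log2 difference of -0.20 (SE 0.084, adjusted p = 0.090). Both inhibitor libraries lay below both shControl libraries, but the difference did not pass. It was called after rescaling by the median of ratios (-0.27), after quantile normalization (-0.29) and against Vector (-0.32). The paralog STK17A stood at 34.7 and 33.9 TPM against 41.8 and 39.5 TPM with the inhibitor, a log2 change of 0.24 (adjusted p = 0.0030) that was not called after quantile normalization (0.12) and was 0.42 against Vector. All 8 plasma cell markers passed the filter. Markers of other cells were scarce. Of 7 T cell markers CD3D and CD3G were listed at 0 and only CD7 (139 and 139 against 222 and 235 TPM) and CD3E (3.46 and 3.23 against 4.36 and 5.26 TPM) were tested. CD7 stood at 231 and 218 TPM in Vector, against which the inhibitor differed by 0.02, and CD3E lost its call without shControl replicate 2 (0.38) and without inhibitor replicate 2 (0.30). No NK cell, erythroid or stromal marker was tested, and their summed levels in the 4 libraries stayed within 0.164 to 0.764, 0.461 to 1.09 and 0.324 to 3.31 TPM. The tested markers of monocytes (CD68), epithelium (EPCAM, KRT18) and B cells (CD79A) were not called. The part of T cell transcripts in other results was not tested.

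With the inhibitor 3569 genes (28.0%) were higher and 1507 (11.8%) were lower than in shControl at an adjusted p below 0.05 (limma on log2(TPM + 1), Benjamini-Hochberg over all tested genes). The larger changes went the other way: 94 genes fell and 47 rose by at least 2-fold on this scale, which understates the change of low genes. The median over all tested genes was 0.08 log2 units. Of the calls 70.3% were higher, but 53% were after rescaling by the median of ratios (2346 higher, 2083 lower) and 51.9% after quantile normalization (2105 higher, 1949 lower). The balance of small rises and falls thus depended on the scaling, and the same alternatives are given beside the list counts that they move most. Of the 94 genes that fell at least 2-fold, 29 belonged to the HIF lists, and 87 were also lower than in Vector. Of the 47 that rose at least 2-fold, 36 were also higher than in Vector. Against Vector, which carries another construct, 3305 genes (26.0%) were higher and 3434 (27.0%) lower. The list counts below are to be read beside these shares against shControl and Vector. All gene lists were chosen with earlier results of these data known, so their direction is not independent evidence.

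HIF target genes fell as a group. Of 63 tested members of 2 lists, glycolysis genes and other HIF targets, 58 were lower and none higher than in shControl, with a median of -0.88 log2 units, and 29 fell at least 2-fold. In 59 of the 63 both inhibitor libraries lay below both shControl libraries. The share of all genes with this order is not given here, so that count has no background. Against Vector 60 of 63 were lower and none higher (median -0.77). The 2 counts of calls stand beside 11.8% of all genes called lower against shControl and 27.0% against Vector. Leaving out any 1 library, rescaling or quantile normalization left at least 22 of 26 glycolysis genes and 33 of 37 other targets lower.

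**Figure D1:**
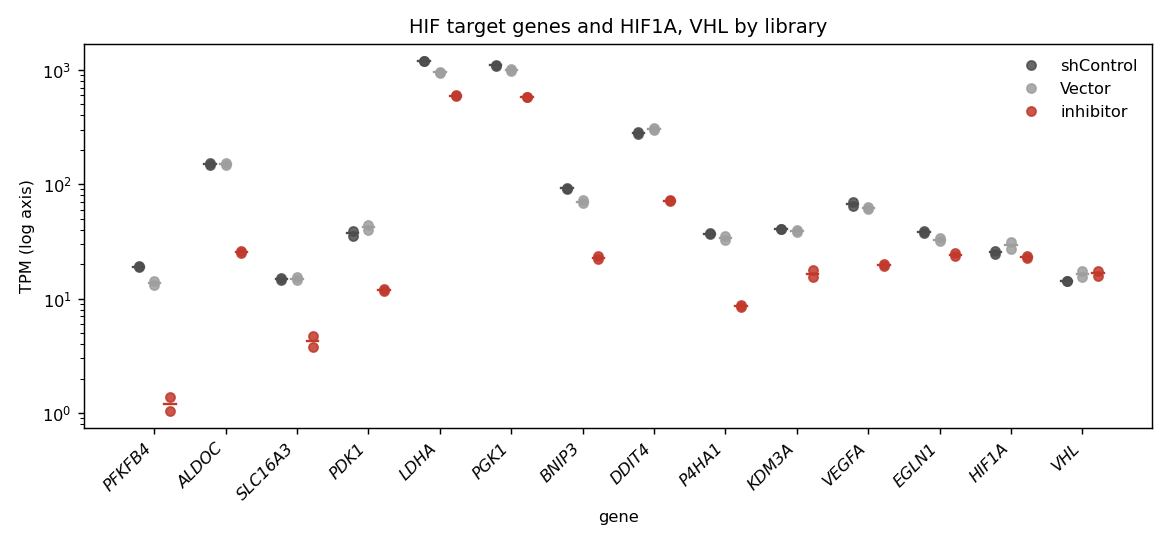
TPM (log axis) of 14 genes in each library of shControl, Vector and the inhibitor. Points are single libraries and short lines are group means. For the 12 HIF targets from PFKFB4 to EGLN1 both inhibitor points lie below all 4 control points, while HIF1A and VHL lie close to the controls.

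Of 26 glycolysis genes 24 fell, with a median of -0.60. PFKFB4 (chr3:48517684-48562015, minus strand), which makes the activator of phosphofructokinase fructose-2,6-bisphosphate, stood at 19.1 and 18.9 TPM in shControl and at 1.05 and 1.37 TPM with the inhibitor. It was 9.08-fold lower in TPM + 1 (log2 change -3.18, SE 0.076, adjusted p = 8.8e-09), the largest fall by the naming rule, and -2.73 against Vector. The aldolase isoform ALDOC (chr17:28573115-28577264, minus strand) fell from 154 and 147 TPM to 26.03 and 25.00 TPM, 5.72-fold. In both genes the groups were far apart and the replicates close. SLC16A3, the lactate exporter MCT4, stood at 14.7 and 15.1 TPM against 3.78 and 4.69 TPM with the inhibitor and fell by 1.61 log2 units (SE 0.084). PDK1, the kinase that keeps pyruvate out of the mitochondrion, fell from 35.4 and 38.7 TPM to 12.02 and 11.6 TPM, a change of -1.57 (SE 0.10). ENO2, an enolase isoform, fell by 1.39. The abundant enzymes fell less. LDHA, lactate dehydrogenase, stood at 1182 and 1183 TPM and fell to 598 and 585 TPM. PGK1, phosphoglycerate kinase, stood at 1104 and 1085 TPM and fell to 581 and 577 TPM, 1.89-fold. LDHA, PGK1, VEGFA and CA9 fall outside the naming rule and were chosen after their values were seen.

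Of 37 other HIF targets 34 fell, with a median of -1.16. ANKRD37, an ankyrin repeat protein whose window is printed above, stood at 31.6 and 32.6 TPM in shControl and 7.15 and 6.77 TPM with the inhibitor and fell by 2.06 log2 units (SE 0.050, adjusted p = 9.0e-09). BNIP3, a mitochondrial outer membrane receptor for mitophagy, stood at 90.9 and 92.5 TPM and fell to 22.3 and 23.4 TPM. Its relative BNIP3L, with the same role, went from 33.2 and 33.5 TPM to 9.54 and 9.50 TPM. For all 3 genes the 2 groups did not overlap and lay more than 3-fold apart on the scale of the fit. VEGFA, the main angiogenic ligand, stood at 63.9 and 69.6 TPM in shControl and 19.3 and 20.2 TPM with the inhibitor, a change of -1.70 (SE 0.047). ADM, the vasodilator peptide adrenomedullin, stood at 5.33 and 5.42 TPM and fell to 0.368 and 0.365 TPM. CA9, a carbonic anhydrase often used as a marker of hypoxia, went from 3.18 and 4.43 TPM to 0.112 and 0.335 TPM. ADM and CA9 were low with the inhibitor, so their changes of -2.22 and -1.97 depend on the added 1 TPM. PPFIA4, a liprin family scaffold protein, stood at 5.14 and 6.09 TPM in shControl and 0.304 and 0.357 TPM with the inhibitor and changed by -2.31.

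Enzymes that use oxygen as a substrate were among the genes that fell. P4HA1, P4HA2, PLOD1, PLOD2, KDM3A and KDM4B are also in the list of other HIF targets, so their falls are already counted above. Of 10 prolyl and lysyl hydroxylases of collagen 6 were lower and none higher, and against Vector all 10 were lower. P4HA1, a catalytic subunit of collagen prolyl 4-hydroxylase, stood at 37.1 and 36.7 TPM and fell to 8.80 and 8.38 TPM, and P4HA2, the alternative subunit, stood at 9.76 and 8.60 TPM and fell to 1.63 and 1.03 TPM. The lysyl hydroxylase PLOD1 fell by 1.25 log2 units, and its relatives PLOD2 and PLOD3 changed by -0.64 and -0.37 (-0.68 against Vector for PLOD3). Of 25 oxygen-dependent histone and DNA demethylases 9 were lower and 4 higher, with a median of -0.06. After the median of ratios 9 were lower and 1 higher (median -0.13), after quantile normalization 9 and 2, and against Vector 13 and 5 (median -0.19). Without shControl replicate 1 or inhibitor replicate 2 the counts were 9 and 2. KDM3A, which removes methyl groups from H3K9, stood at 40.6 and 40.3 TPM in shControl and 17.6 and 15.3 TPM with the inhibitor and fell by 1.25 (SE 0.061, adjusted p = 1.1e-06). KDM7A changed by -0.76, KDM4B by -0.73 and the H3K27 demethylase KDM6B by -0.58, all lower. The 4 that were higher were KDM2A, KDM8, C14orf169 and MINA, and 12 of the 25 were not called.

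The regulators of HIF were mixed. Of 16 tested subunits and regulators 4 were higher and 4 lower, with a median of 0.00 log2 units. The counts were 2 and 5 with the median of ratios (median -0.07), and quantile normalization gave 2 and 6 (median -0.09). Without either shControl library they were 2 and 3, and without inhibitor replicate 1 they were 2 and 4. HIF1A, the alpha subunit, stood at 24.8 and 25.9 TPM in shControl and 23.7 and 22.6 TPM with the inhibitor (log2 difference -0.13, SE 0.10, adjusted p = 0.34), a difference that did not pass but did against Vector (-0.32). EPAS1, which encodes HIF-2 alpha, lay between 0.0568 and 0.180 TPM in the 12 libraries and was not tested. ARNT, the partner of the alpha subunit, was among the 4 called lower, with a change no lower than -0.16. That call was lost when the prior of the fit had no trend. VHL stood at 14.3 and 14.2 TPM against 17.5 and 15.6 TPM. Its change of 0.20 was called (adjusted p = 0.037) but not without shControl replicate 1 (0.21), shControl replicate 2 (0.20) or inhibitor replicate 1 (0.13), after the median of ratios (0.13) or quantile normalization (0.11), or against Vector (0.02). HIF1AN, the asparagine hydroxylase that blocks coactivator binding, rose by 0.33 from 10.6 and 10.8 TPM to 13.7 and 13.7 TPM, and the coactivator CREBBP rose by 0.30. EGLN1, the main HIF prolyl hydroxylase and itself a HIF target, stood at 37.6 and 39.3 TPM and fell to 25.05 and 23.4 TPM, a change of -0.64 (-0.42 against Vector). CITED2, a competitor for CREBBP that HIF also induces, fell by 0.26 (-0.54 against Vector). HIF proteins were not measured.

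The same genes were read in the other perturbations of STK17B. Overexpression against Vector shares no library with inhibitor against shControl. There 60 of the 63 HIF targets were higher and none lower (median 0.82), where 26.6% of all genes were higher and 10.3% lower. Of the 58 that fell with the inhibitor 55 were higher with overexpression. PFKFB4 stood at 13.1 and 14.2 TPM in Vector and 45.6 and 46.1 TPM with overexpression, a rise of 1.68 log2 units, and CA9 rose from 2.35 and 2.23 TPM to 29.1 and 28.1 TPM. The mean of sh1 and sh2 against shControl shares the shControl libraries with the inhibitor comparison, so the values are only set side by side. In the hairpins 38 of the 63 were lower and 5 higher (median -0.21), where 20.2% of all genes were lower and 26.2% higher. ADM changed by -1.50 in the hairpins and -2.22 with the inhibitor, and ANKRD37 by -1.23 and -2.06. ALDOC (0.06), KDM3A (0.10) and DDIT4 (-0.07) were not called in the hairpins. SLC16A3 was higher in the hairpins (0.29), at 19.1 and 20.9 TPM with sh1 and 16.96 and 17.2 TPM with sh2.

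The difference between inhibitor and hairpins was tested directly, in a contrast that called 30.9% of all genes higher and 21.6% lower with the inhibitor than in the mean of sh1 and sh2. Of the 63 HIF targets 58 were lower with the inhibitor than with the hairpins and none higher (median -0.58). ALDOC differed by -2.57 log2 units (adjusted p = 2.7e-11), P4HA1 by -1.67, BNIP3 by -1.81 and ADM by -0.72 (adjusted p = 4.2e-05). STK17B transcript was higher with the inhibitor than in the hairpins, by 0.80. No dose or degree of kinase inhibition is given, so the 2 perturbations are not matched in strength.

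**Figure D2:**
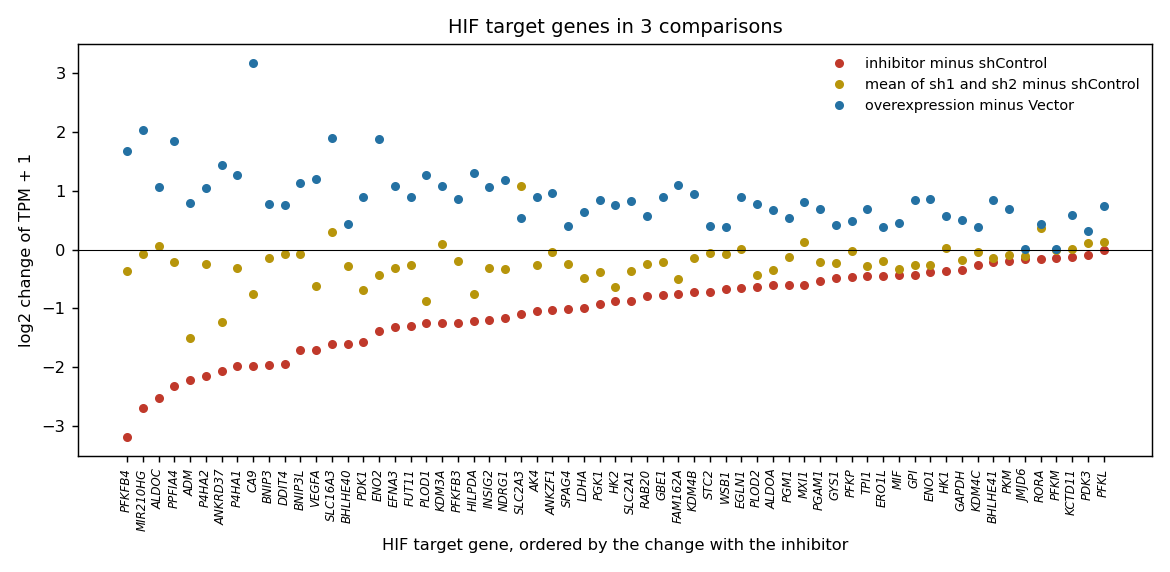
Log2 change of TPM + 1 for the 63 tested HIF targets, ordered by the change with the inhibitor, in 3 comparisons: inhibitor minus shControl, mean of sh1 and sh2 minus shControl, and overexpression minus Vector. All inhibitor points lie below 0, all overexpression points above it, and most hairpin points below it. The inhibitor and hairpin points share the shControl libraries.

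DDIT4, TXNIP, TP53INP1 and CDKN1C fell. DDIT4 (chr10:72273920-72276036, plus strand), which restrains mTORC1 and is induced by hypoxia and by ATF4, stood at 285 and 274 TPM in shControl, 308 and 299.9 TPM in Vector and 72.3 and 71.3 TPM with the inhibitor. It is also one of the HIF targets and fell 3.86-fold (SE 0.035 log2 units). TXNIP (chr1:145992435-145996600, minus strand), which binds thioredoxin and limits glucose uptake, stood at 55.5 and 56.2 TPM in shControl and 19.2 and 17.4 TPM with the inhibitor, a change of -1.56. TXNIP rose from 80.9 and 79.1 TPM in Vector to 265 and 257 TPM with overexpression. TP53INP1, a p53 target that promotes autophagy, stood at 12.5 and 13.2 TPM and fell to 3.58 and 3.55 TPM, and its Vector libraries were higher than shControl, at 28.2 and 29.8 TPM, which makes its change -1.60 against shControl and -2.71 against Vector. CDKN1C, the CDK inhibitor p57, fell from 5.62 and 6.78 TPM to 2.33 and 2.26 TPM. The lists that hold DDIT4, TP53INP1 or CDKN1C were mixed: of 29 p53 targets and CDK inhibitors 7 were higher and 8 lower (4 and 5 without either shControl library, 4 and 6 without inhibitor replicate 1, 2 higher after either rescaling, 14 lower against Vector), and of 31 mTOR genes 12 were higher and 5 lower. Among the latter DEPTOR, an inhibitor of mTOR, fell by 0.49. RRAGC, a GTPase that recruits mTORC1 to the lysosome, rose by 0.55 from 11.5 and 11.3 TPM to 17.5 and 16.8 TPM. Its paralog RRAGD fell by 0.58.

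Most called genes of lipid synthesis were lower. Of 20 genes of fatty acid synthesis and desaturation 10 fell and 3 rose (median -0.21), 12 and 1 after quantile normalization and 14 and 3 against Vector. Among the 3 that rose, ME1, which supplies NADPH, changed by 0.78. Of 32 SREBP2 and cholesterol genes 20 fell and 2 rose (median -0.24). FADS2 (chr11:61792980-61867354, plus strand), the delta-6 desaturase that begins the synthesis of long polyunsaturated fatty acids, stood at 100.01 and 103 TPM in shControl and fell to 19.3 and 19.4 TPM, 5.05-fold (adjusted p = 4.1e-10). SREBF1, the transcription factor of fatty acid synthesis, stood at 123 and 126 TPM and fell to 65.7 and 73.6 TPM, a change of -0.83 (SE 0.048). SREBF2, its counterpart for cholesterol, fell by 0.42 from 129 and 129.5 TPM to 94.7 and 98.6 TPM. The sterol exporters ABCA1 and ABCG1 fell, with changes of -0.93 and -0.57 (-1.49 and -0.95 against Vector). INSIG2, which retains the SREBP complex in the endoplasmic reticulum and is also a HIF target, went from 20.03 and 22.1 TPM to 9.26 and 8.14 TPM. Against the hairpins 23 of the 32 cholesterol genes were lower with the inhibitor and 1 higher, where 21.6% and 30.9% of all genes were. In the hairpins against shControl 16 of the 32 were higher and 6 lower (median 0.12), where 26.2% and 20.2% of all genes were. SREBF1 differed from the hairpins by -0.93 and was not called in the hairpins against shControl (0.10). Overexpression lowered FADS2 as well (-0.90), so FADS2 fell both with the inhibitor and with overexpression. With overexpression against Vector 20 of the 32 cholesterol genes were lower and 6 higher (median -0.33), where 10.3% and 26.6% of all genes were. Of the 20 fatty acid genes 7 were lower there and none higher (median -0.07).

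**Figure D3:**
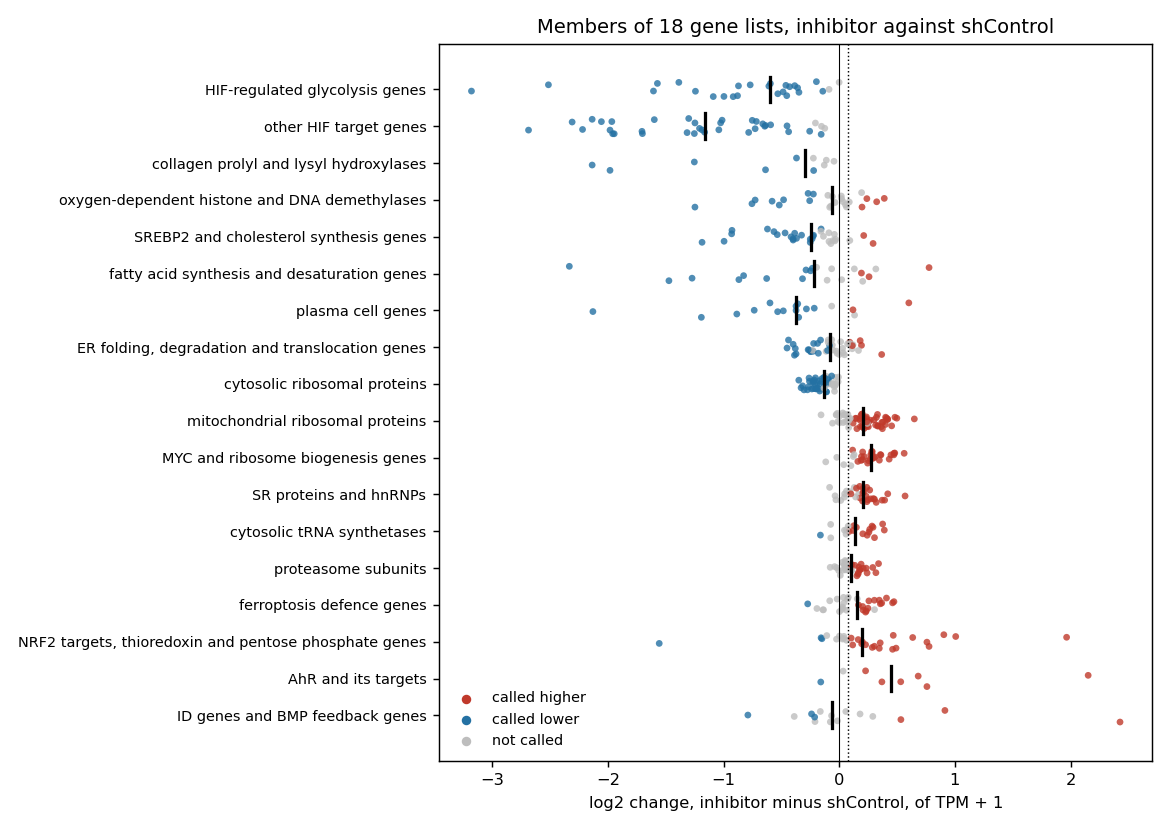
Log2 change of TPM + 1, inhibitor minus shControl, for the tested members of 18 gene lists. Each point is a gene, red where called higher, blue where called lower and grey where not called, the vertical bars are list medians and the dotted line is the median of all tested genes, 0.08. The HIF lists lie to the left, with medians of -0.60 and -1.16, and the mitochondrial ribosomal and ribosome biogenesis lists to the right, with medians of 0.20 and 0.27.

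ID1 (chr20:31605283-31606515, plus strand) had the largest rise by the naming rule. It encodes an inhibitor of basic helix-loop-helix transcription factors and is a classical target of BMP signalling. ID1 stood at 21.6 and 19.9 TPM in shControl, 18.3 and 19.4 TPM in Vector and 116 and 116 TPM with the inhibitor, 5.38-fold higher than shControl (log2 change 2.43, SE 0.095, adjusted p = 2.4e-07). The hairpin libraries lay at 23.2 and 23.3 TPM (sh1) and 23.97 and 22.6 TPM (sh2), and overexpression at 27.3 and 35.01 TPM, so the inhibitor libraries were the highest of the 12. ID3 stood at 20.9 and 19.5 TPM and rose to 36.96 and 41.1 TPM, and ID2 stood at 70.3 and 66.7 TPM and rose to 105 and 94.4 TPM. Against the hairpins ID1 was higher by 2.27 and ID3 by 0.84, while ID2 (0.05) was not called. Of 15 tested ID and BMP feedback genes these 3 were higher and 3 were lower, 8 against Vector. NOG, the secreted BMP antagonist noggin, fell from 3.05 and 3.72 TPM to 1.69 and 1.37 TPM, a change of -0.79 (-1.44 against Vector, at 5.85 and 5.86 TPM).

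**Figure D4:**
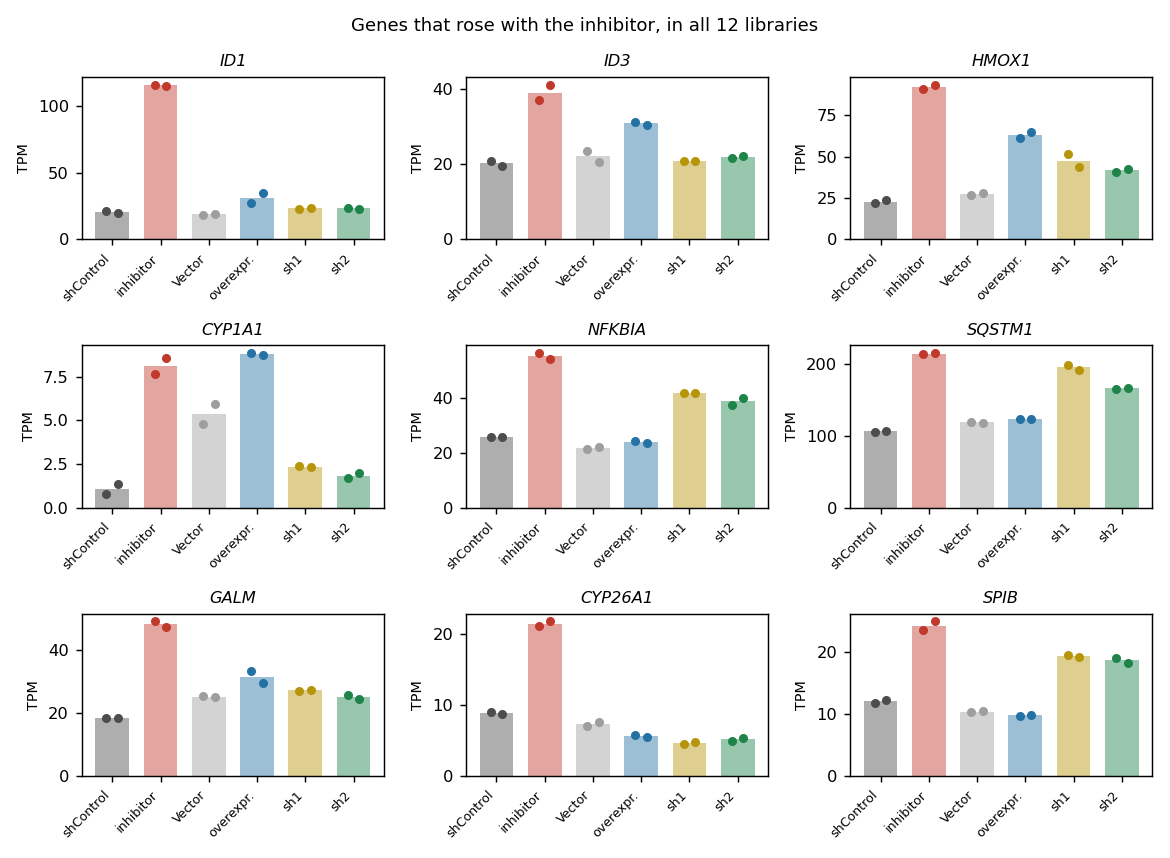
TPM of 9 genes that rose with the inhibitor, in all 12 libraries. Bars are group means and points are the 2 libraries of each group. ID1 stands at 116 and 116 TPM in the inhibitor libraries and below 36 TPM in every other library, while CYP1A1 is also high in Vector and overexpression, and SQSTM1, NFKBIA and SPIB are also higher in sh1 and sh2 than in shControl.

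Genes of oxidative stress defence rose. Of 29 NRF2, thioredoxin and pentose phosphate genes 19 were higher and 3 lower (median 0.20), after quantile normalization 13 and 3, and against Vector 17 and 6. HMOX1 (chr22:35380361-35394214, plus strand), which breaks down heme and releases iron, stood at 22.2 and 23.6 TPM in shControl and 91.03 and 93.5 TPM with the inhibitor, 3.91-fold higher (SE 0.071 log2 units). It lay between these levels in the other perturbations, at 51.7 and 43.7 TPM with sh1, 40.9 and 42.8 TPM with sh2 and 61.6 and 64.9 TPM with overexpression. SQSTM1, the autophagy receptor p62 that competes with NRF2 for KEAP1, stood at 106 and 107 TPM and rose to 214 and 216 TPM. SQSTM1 was also higher than in Vector, at 120.02 and 119 TPM, and in both hairpins than in shControl. NQO1, a quinone reductase, rose by 0.76 from 37.3 and 39.95 TPM to 65.2 and 66.7 TPM, and KEAP1, the repressor of NRF2, rose by 0.47 (0.71 against Vector). CYP1A1 (chr15:74719542-74725610, minus strand), the classical target of the aryl hydrocarbon receptor, stood at 0.772 and 1.37 TPM in shControl and 7.68 and 8.58 TPM with the inhibitor. Its change of 2.15 against shControl was 0.52 against Vector (adjusted p = 0.011), where it stood at 4.81 and 5.94 TPM, so its size depends on the control. AHRR, the repressor of that receptor, rose by 0.68 against shControl and 0.67 against Vector, and of 8 genes of this list 6 were higher and 1 lower.

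Ferroptosis genes, which the title of the series names, moved by small amounts. Ferroptosis is an iron-dependent death by lipid peroxidation, which GPX4 detoxifies with glutathione and which ubiquinone and AIFM2 hold back in parallel. Of 31 ferroptosis defence genes 14 were higher and 1 lower (median 0.16), but 8 and 2 after quantile normalization. Over all genes 28.0% were higher and 11.8% lower. GPX4 (chr19:1103926-1106791, plus strand) stood at 303 and 302 TPM in shControl and 411 and 428 TPM with the inhibitor, a rise of 0.47 (SE 0.038, adjusted p = 2.3e-05; 0.37 against Vector). GCLC, the rate-limiting enzyme of glutathione synthesis, rose by 0.46, and the ubiquinone synthesis genes PDSS1 and COQ9 rose by 0.41 and 0.36 (COQ9 by 0.23 after quantile normalization). AIFM2 stood at 14.01 and 13.8 TPM and 15.8 and 17.6 TPM. Its change of 0.25 was called, but not without shControl replicate 2 (0.24) or inhibitor replicate 2 (0.17), after the median of ratios (0.18) or after quantile normalization (0.16), and it was 0.47 against Vector. SLC7A11, the cystine importer, lay between 0.546 and 0.831 TPM in the 4 libraries and was not tested. Phospholipid remodelling genes of ferroptosis were mixed, with 5 of 16 higher and 4 lower (median -0.006), and 2 and 6 after quantile normalization. The largest fall among them was that of ACSL4, which puts polyunsaturated fatty acids into phospholipids. ACSL4 stood at 17.5 and 17.4 TPM and 13.9 and 12.3 TPM. Its change of -0.39 was called, but not without shControl replicate 1 (-0.38) or inhibitor replicate 2 (-0.31).

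Iron genes were mixed, with 11 of 28 higher and 3 lower (7 higher without shControl replicate 2, 7 and 6 after quantile normalization, 7 and 6 against Vector) and a median of 0.02 that turned to -0.05 (median of ratios) and -0.04 (quantile normalization). The shares over all genes were 28.0% higher and 11.8% lower against shControl, and 26.0% and 27.0% against Vector. FTH1, the ferritin heavy chain that stores iron, stood at 1178 and 1222 TPM in shControl and rose to 1863 and 1865 TPM, by 0.63 (SE 0.052), and by 0.37 against Vector. The light chain FTL stood at 973 and 943 TPM and 1197 and 1253 TPM. Its rise of 0.35 against shControl was not seen against Vector (-0.03), which stood at 1222 and 1284 TPM. NCOA4, which delivers ferritin to the lysosome, changed by 0.30 against shControl and 0.16 against Vector, where it was not called, and 0.20 after quantile normalization. TFRC, the transferrin receptor, stood at 202 and 203 TPM and 173 and 166 TPM, a change of -0.26 that was not called against Vector (-0.12). SLC40A1, the iron exporter ferroportin, stood at 0.95 and 1.45 TPM and 1.20 and 0.908 TPM and did not pass (-0.09). The metal importer SLC39A8 was lower, by -0.41 against shControl and -0.43 against Vector.

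The machinery of growth was mostly higher, by small amounts. Its counts stand beside 28.0% of all genes higher and 11.8% lower against shControl. Of 32 MYC and ribosome biogenesis genes 26 rose and none fell (median 0.27), against 22 and 1 with the median of ratios and 18 and 2 with quantile normalization. RRS1, an assembly factor of the large ribosomal subunit, stood at 83.5 and 83.9 TPM and rose to 125 and 123 TPM, by 0.56 (SE 0.044). ODC1, which starts polyamine synthesis, stood at 294 and 292 TPM and rose to 403 and 397 TPM, by 0.45 (0.85 against Vector). POLR1C, a subunit shared by RNA polymerases I and III, rose by 0.47 (0.76 against Vector). MYC itself stood at 470.4 and 492 TPM and 496 and 493 TPM and did not pass (0.04, adjusted p = 0.45). Of 63 mitochondrial ribosomal proteins 42 rose and none fell (median 0.20), against 28 and 0 with the median of ratios and 23 and 2 with quantile normalization. MRPL1, a protein of the large mitochondrial subunit, stood at 15.2 and 17.9 TPM and rose to 28.2 and 24.8 TPM. Cytosolic ribosomal proteins did the opposite, with 37 of 50 lower and none higher (median -0.13), and 20 and 3 after quantile normalization. RPS14 stood at 3419 and 3236 TPM and fell to 2556 and 2663 TPM, a change of -0.35, and RPL3 fell by 0.33. These changes were -0.13 and -0.50 against Vector and -0.19 and -0.22 after quantile normalization. Of 32 SR proteins and hnRNPs, which bind pre-mRNA, 21 rose and none fell, among them SRSF6 (75.2 and 76.4 TPM against 117 and 109 TPM, a rise of 0.57) and the cold-inducible CIRBP (0.42). Ribosomal protein genes have many near-identical pseudogenes, and how the authors' counting split such reads is not given in the sources used here.

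Several of these lists differed between the inhibitor and the hairpins. All 32 ribosome biogenesis genes and all 36 genes of G1/S and DNA replication were higher with the inhibitor than in the mean of sh1 and sh2, where 30.9% of all genes were. In the hairpins against shControl 27 of the 32 and 32 of the 36 were lower and none higher (medians -0.21 and -0.24). With the inhibitor against shControl the replication list had 16 higher and 3 lower (median 0.10), 9 and 8 after quantile normalization (median 0.01) and 25 and 1 against Vector. MCM5, a subunit of the replicative helicase, stood at 163 and 158 TPM in shControl, 194 and 213 TPM with the inhibitor, 156 and 155 TPM with sh1 and 152 and 149.7 TPM with sh2. It rose by 0.34 against shControl and 0.61 against Vector. E2F1, a transcription factor of S phase entry, rose by 0.28 against shControl (0.16 after quantile normalization) and was higher by 0.30 than in the hairpins. CCND2, cyclin D2, was lower than in shControl, by -0.20 (-0.11 against Vector, -0.31 after quantile normalization) but was higher than in the hairpins by 0.22. MYC was also higher than in the hairpins, by 0.40 (adjusted p = 8.8e-06). Of 30 G2/M genes 4 were higher and 4 lower against shControl, 9 lower after quantile normalization and 15 against Vector.

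**Figure D5:**
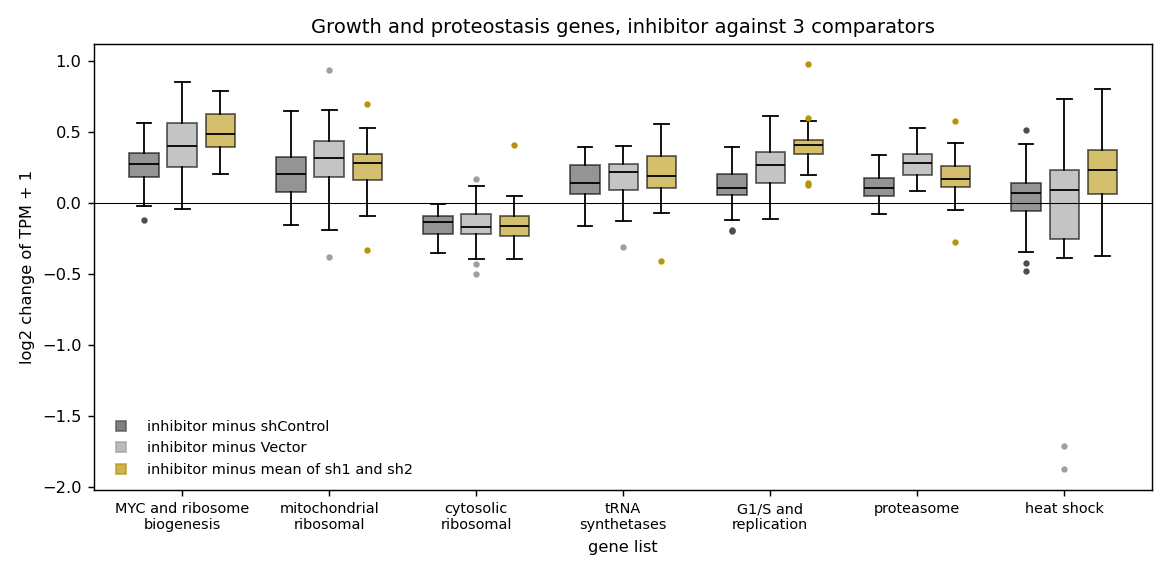
Log2 change of TPM + 1 for the members of 7 gene lists with the inhibitor against shControl, Vector and the mean of sh1 and sh2. Boxes span the quartiles, black lines are medians, whiskers reach the last gene within 1.5 box lengths and points are genes beyond. Ribosome biogenesis and G1/S genes lie highest against the hairpins, and the medians of cytosolic ribosomal proteins lie below 0 against each of the 3. The 3 comparisons share the inhibitor libraries.

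Quality control of proteins was mixed. Of 20 cytosolic tRNA synthetases 13 rose and 1 fell, but 8 rose without shControl replicate 1, 9 without inhibitor replicate 2, 9 with the median of ratios and 7 with quantile normalization. FARSB, the beta subunit of phenylalanyl-tRNA synthetase, stood at 104 and 102 TPM and rose to 139.9 and 128 TPM, by 0.37 and by 0.24 after quantile normalization. Of 32 proteasome subunits 16 rose and none fell, but 9 rose without inhibitor replicate 1, 6 rose and 1 fell after the median of ratios, and 31 rose against Vector. Of 21 heat shock chaperones 8 were higher and 4 lower (median 0.07), with 4 and 5 under the median of ratios and 4 and 4 under quantile normalization (median -0.01 in both). Without shControl replicate 1, shControl replicate 2 or inhibitor replicate 1 the counts were 5 and 3. HSPA8, the constitutive HSP70 chaperone, stood at 1519 and 1495 TPM in shControl and rose to 2143 and 2148 TPM, by 0.51 (SE 0.022), and DNAJA1, its cochaperone, rose by 0.41, while the small heat shock protein HSPB1 changed by -0.35. Genes of the endoplasmic reticulum were mixed, with 17 of 41 lower and 5 higher. Without shControl replicate 2 the counts were 10 and 6, without inhibitor replicate 2 they were 11 and 4, and without shControl replicate 1 they were 12 and 2. After either rescaling they were 22 and 2. HSP90B1, the chaperone GRP94, stood at 1084 and 1078 TPM and fell to 817 and 777 TPM, and XBP1, the transcription factor of the secretory programme, fell by 0.37, while DERL2, which exports misfolded proteins, rose by 0.37. Of 31 ATF4 genes 7 rose and 14 fell, with 3 higher after either rescaling. Without shControl replicate 1 the counts were 3 and 9, without shControl replicate 2 they were 5 and 9, and without inhibitor replicate 1 they were 6 and 9. ATF4 stood at 674 and 683 TPM and rose to 770.01 and 794 TPM, by 0.20 (0.13 after the median of ratios).

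Plasma cell genes were lower, 13 of 17, with 2 higher (median -0.37), where 11.8% of all genes were lower and 28.0% higher. The list was also lower in the other perturbations. In the hairpins against shControl 14 were lower and none higher (median -0.31), where 20.2% of all genes were lower. With overexpression against Vector 9 were lower and 2 higher (median -0.24), where 10.3% of all genes were lower. Between inhibitor and hairpins 6 were higher and 6 lower (median -0.005). The summed level of the 8 plasma cell markers was 2116 and 2139 TPM in shControl and 1593 and 1557 TPM with the inhibitor. SDC1 (chr2:20200797-20225433, minus strand), which encodes CD138, the surface proteoglycan used to sort plasma cells, stood at 57.7 and 59.4 TPM in shControl and fell to 12.7 and 12.5 TPM, 4.38-fold. The hairpins lay between, at 25.7 and 24.1 TPM with sh1 and 33.95 and 34.5 TPM with sh2. CD48, an adhesion ligand of lymphocytes, fell by 0.74, and IRF4, a transcription factor on which myeloma cells depend, fell by 0.35 and was higher than in the hairpins by 0.33. CD38, an ectoenzyme and antibody target, was low, at 0.462 and 0.647 TPM and 1.24 and 1.47 TPM, and its change of 0.60 was not called without shControl replicate 1 (0.52) or inhibitor replicate 2 (0.53). SPIB, a B lineage transcription factor, stood at 11.8 and 12.3 TPM and rose to 23.6 and 24.97 TPM, by 0.95 (SE 0.048), and BCL6, a repressor of the plasma cell fate, fell by 0.62. In bulk RNA a lower share of cells with a transcript and less transcript per cell cannot be told apart.

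Cytokine and survival genes were mixed. Their counts stand beside 28.0% of all genes higher and 11.8% lower against shControl, and 26.0% and 27.0% against Vector. IL6R (chr1:154405193-154469450, plus strand), the receptor for the myeloma growth factor interleukin 6, stood at 22.6 and 22.9 TPM in shControl, 29.3 and 28.9 TPM in Vector and 6.89 and 6.63 TPM with the inhibitor, a change of -1.61 (SE 0.049, adjusted p = 4.5e-08). SOCS3, a feedback target of that pathway, fell by 0.75, whereas the kinase JAK1 rose by 0.32 (0.18 against Vector, 0.20 after quantile normalization). Of 19 genes of this pathway 4 were higher and 7 lower, and against Vector 3 and 12. BCL2L1, the survival protein BCL-XL, stood at 159.7 and 159.9 TPM and fell to 90.1 and 92.6 TPM, and BMF, a proapoptotic BH3-only protein, stood at 32.8 and 33.9 TPM and rose to 58.97 and 59.00 TPM, which was 0.80 against shControl and 0.36 against Vector. Of 16 BCL2 family genes 5 were higher and 3 lower (BCL2L1 and the mitophagy genes BNIP3 and BNIP3L), with 3 higher without shControl replicate 1 or inhibitor replicate 1, 3 and 5 after quantile normalization and 4 and 7 against Vector. NFKBIA, the inhibitor of NF-kB and one of its targets, stood at 25.9 and 25.9 TPM and rose to 56.3 and 54.3 TPM. Of 23 NF-kB components and targets 9 were higher and 4 lower (median 0.10), 6 and 6 with the median of ratios, 5 and 5 under quantile normalization and 11 and 5 against Vector. TRAF3, a negative regulator of the noncanonical branch, rose by 0.38. Among the 4 that fell TNFAIP3, a deubiquitinase that limits the pathway, changed by -0.37, the adhesion molecule ICAM1 by -0.32 and lymphotoxin beta, LTB, by -0.54 (the latter 2 by -0.52 and -0.33 against Vector). STAT2, a signal transducer of type I interferon, stood at 25.5 and 26.2 TPM and fell to 15.3 and 15.01 TPM, a change of -0.73 (-1.27 against Vector). Surface genes CD9, a tetraspanin, and ITGA8, an integrin subunit, fell, with changes of -1.16 and -1.11, while the integrin subunit ITGB5 rose by 0.49 against shControl and 0.17 against Vector. PECAM1, an adhesion molecule of endothelium and leukocytes, fell from 4.82 and 4.17 TPM to 0.788 and 0.919 TPM, while CDH5, which defines endothelium, was listed at 0.

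The other genes with the largest rises by the naming rule were low to moderate in level. GALM, which interconverts galactose anomers, stood at 18.2 and 18.5 TPM in shControl and rose to 48.98 and 47.1 TPM, and CYP26A1, which degrades retinoic acid, stood at 9.04 and 8.71 TPM and rose to 21.1 and 21.7 TPM. CYP26A1 was lower in sh1 (4.43 and 4.76 TPM) and sh2 (4.92 and 5.33 TPM) than in shControl, so the inhibitor and the hairpins lay on opposite sides of it. RPP40, a subunit of ribonuclease P, stood at 9.92 and 11.1 TPM and rose to 21.5 and 23.6 TPM. AMN rose from 3.90 and 4.69 TPM to 11.5 and 12.8 TPM, by 1.32 (SE 0.14). The rest, SPINK2 (1.31), SMKR1 (1.21), BZRAP1 (1.16) and PPDPF (1.05), had no more than 12.3 TPM in any library of the 4. Among the largest falls LOC102724594 (11.8 and 15.1 TPM against 1.13 and 3.37 TPM, -2.23) has a near-identical copy in the genome and is uncertain. It was not called without shControl replicate 2 (-2.07) or inhibitor replicate 1 (-1.72).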

How the data were processed

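The authors deposited 1 table of TPM values per gene for 12 libraries of KMS11 cells, 2 in each of 6 groups. Per the submitters' processing notes, RSEM 1.3.1, Bowtie2 2.3.4.3, HISAT and DESeq2 1.4.5 were used with GRCh38.p13, in no stated order. Per the labels, RNA was poly(A)-selected and libraries were stranded. No counts were used, so the depth behind a value is unknown, and TPM is a share of each library.

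Genes at 1 TPM or more in at least 2 libraries were tested with limma 3.58.1 (R 4.3.3) on log2(TPM + 1), with 1 mean per group over all 12 libraries, a trended prior and Benjamini-Hochberg adjustment over 12731 genes. A call is an adjusted p below 0.05. SE is the standard error of the log2 difference. The fit was run on simulated data with independent noise, which cannot test the scaling or the independence of the replicates. Named genes were the largest called changes with non-overlapping groups, 5 TPM or more in the higher group and a call in the same direction against Vector, up to 5 called members per list, members that went against their list, and a panel of ferroptosis, HIF and myeloma genes. The genes compared and all 46 lists were chosen with earlier results of these data known. Gene coordinates are GENCODE v29 (GRCh38). Other pseudocounts, filters, scalings, controls, a replicate block and left-out libraries were tried. A gene of the lists is not reported by name here.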

Additional observations from a re-analysis of the deposited data

How the results depend on the processing

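Leaving out 1 library in turn gave 2458 to 2904 genes higher and 1039 to 1166 lower with the inhibitor than in shControl, and 5158 to 5567 called against the hairpins. Rescaling by the median of ratios gave 2346 higher and quantile normalization 2105. Vector as control gave 3434 lower. A change of at least 2-fold was met by 47 genes higher, 94 lower and 153 against the hairpins, where 6694 were called. The replicate numbers did not pair the libraries: deviations of same-numbered shControl and inhibitor libraries correlated at -0.172 over 9016 genes. With a replicate block 3468 genes were higher, 1464 lower and 6606 differed from the hairpins, and with the crossed pairing, added after seeing the data, 3396 were higher and 1443 lower. FTL reversed with Vector as control (-0.032). The cause was not tested in any of these cases. At 2 libraries per group and an unknown depth, small changes of low genes are the least certain.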

Other observations

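Counts for interferon and lysosome genes depended on the control. Over all genes 28.0% were higher and 11.8% lower against shControl, 26.0% and 27.0% against Vector, and 30.9% and 21.6% against the hairpins. Of 30 type I interferon genes 4 were higher and 6 lower against shControl (1 and 5 without inhibitor replicate 2, 2 and 7 without shControl replicate 1, 2 and 5 without shControl replicate 2), 0 and 13 against Vector, and 1 and 23 against the mean of the hairpins. In the hairpins against shControl 22 of these 30 were higher and 2 lower (median 0.52), where 26.2% and 20.2% of all genes were. Of 20 genes of MHC class I and antigen processing 12 were higher and 4 lower there. With the inhibitor 2 were higher and 6 lower against shControl, 3 and 9 against Vector, and 3 and 14 against the hairpins. The 6 lower were 2 without inhibitor replicate 1, 3 without shControl replicate 2, 4 without shControl replicate 1 and 10 after the median of ratios. Of 32 lysosome and autophagy genes 16 were higher and 2 lower against shControl, 9 and 2 without shControl replicate 2, 6 and 16 against Vector, and 7 and 8 after quantile normalization. Of 62 nuclear respiratory chain subunits 23 were higher and 3 lower, and 8 and 3 after rescaling by the median of ratios.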
